A study of Mus musculus with 9 samples.

Results

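Smarcd3 and Chpf2 are a pair of genes that lie tail to tail on opposite strands of mouse chromosome 5, so that their 3′ ends cover the same stretch of DNA. They were examined in lung fibroblasts of mice given doxorubicin, together with the other enzymes that build chondroitin chains (Chpf, Chsy1, Chsy3, Csgalnact1 and Csgalnact2). These are 7 of the 55302 gene symbols in the tables. Smarcd3 was selected on its Dox against Pbs values in these same libraries, so its difference between the groups is given as a description and without a test. Chpf2 was taken as the gene under it, and the other 5 were taken by family.

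Chondroitin sulfate is a long chain of alternating glucuronic acid and N-acetylgalactosamine, carried by proteoglycans of the matrix and the cell surface. A linker of a few sugars is first built on a serine of the core protein, Csgalnact1 and Csgalnact2 begin the chain on it, and Chsy1, Chsy3, Chpf and Chpf2 lengthen it as enzyme complexes before sulfotransferases modify it. Fibroblasts are a major source of such proteoglycans in lung matrix. Smarcd3, also called BAF60C, has no part in this pathway: it is a subunit of the BAF chromatin remodelling complex, best known from heart and muscle development.

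The data are 9 libraries of RNA from fibroblasts sorted out of lungs at an early metastatic stage. The 5 Dox libraries come from mice given doxorubicin, an anthracycline that damages DNA, as 2 doses of 5 mg/kg given 5 days apart, and the 4 Pbs libraries come from vehicle mice, whose treatment the labels also call saline. All mice had carried a breast tumour, injected into the mammary fat pad of females 8 weeks old and resected 2 weeks later, with the first dose 4 days after resection and the lungs taken 24 h after the last dose. Methods describe BALB/c mice with 4T1 cells and C57BL/6 mice with EO771 cells, and the labels do not name which gave these libraries. The gate in Methods was CD45-, EpCAM-, CD31- and PDGFRα+, whereas the labels leave out CD31. Each library is labelled as a biological replicate.

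The method, MARS-seq, sequences a short tag close to the 3′ end of polyadenylated RNA and keeps track of its strand. A value is a normalised read count, that is, the reads counted in a gene's row over that library's size factor, with no scaling by gene length. Values of 2 genes are therefore set side by side below only as reads that fell in each row. Read totals were 432322 to 1285816 in Dox libraries and 497637 to 734114 in Pbs libraries, and 1 read was worth 0.512 to 1.94 normalised counts. The ribosomal RNA row CT010467.1 took 7.91% to 35.3% of reads in Dox libraries, with the highest share in Dox 2, and 5.74% to 9.34% in Pbs libraries. Pbs 4 stood apart. Its summed level of 12 fibroblast markers was 1535, against 2351 to 3101 in Dox libraries and 3169 to 3465 in the other Pbs libraries, and that of 12 granulocyte markers was 1125, against 65.8 to 92.6 in Dox libraries and 28.0 to 37.9 in the other Pbs libraries. The sum of 12 epithelial markers, of which Nkx2-1 was at 0 throughout, was 44.5 to 179 in Dox libraries, 15.8 to 36.6 in Pbs 1 to 3 and 483 in Pbs 4. The 12 pan-immune markers summed to 6.496 to 43.5 in Dox libraries, 10.6 to 13.9 in Pbs 1 to 3 and 344 in Pbs 4. Col1a1, the main fibrillar collagen chain, ran from 1169 to 1785 in Dox libraries and from 1027 to 2333 in Pbs libraries. The row of the sorting gene Pdgfra held only 0.928 to 8.22 in Dox libraries and 0.810 to 11.99 in Pbs libraries.

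In the mm10 build Chpf2 spans chr5:24586741-24594556 on the plus strand and Smarcd3 spans chr5:24590818-24624411 on the minus strand (GENCODE M21). The spans share 3739 bases. The exons share 2466 bases, which is 44.1% of the exon bases of Chpf2 and 48.2% of those of Smarcd3. This overlap falls where a 3′ tag method reads. The last 500 bases of both protein-coding transcripts of Smarcd3, which share the 3′ end at 24592622, lie in exons of Chpf2. The last 500 bases of a shorter coding transcript of Chpf2, which ends at 24592484, lie in exons of Smarcd3, through a retained-intron transcript of that gene. The longest coding transcript of Chpf2 ends at 24594395, inside the span of Smarcd3, and 98 of its last 500 bases lie in Smarcd3 exons.

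A further short coding transcript of Chpf2 ends at 24591220, inside a Smarcd3 exon, and its end is not printed. The last 30 bases at the other 3 coding ends are shown because the tags of each gene would lie just before them, written 5′ to 3′ on the strand of the named gene with the polyadenylation hexamer in capitals.
Chpf2, longer end (chr5:24594366-24594395, plus strand): ctcAATAAAtaccaactactctttttcctt
Chpf2, shorter end (chr5:24592455-24592484, plus strand): taagaaatgttATTAAAcgtatcttctgcc
Smarcd3, coding end (chr5:24592622-24592651, minus strand): ctggatggATTAAAggtcacgtaacagaca
Both strands thus carry a hexamer at an annotated end, AATAAA or ATTAAA in Chpf2 and ATTAAA in Smarcd3. Each sequence was taken from the end of the GENCODE M21 transcript sequence. A hexamer here is a description of the sequence, not a measured cleavage site.

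**Figure D1:**
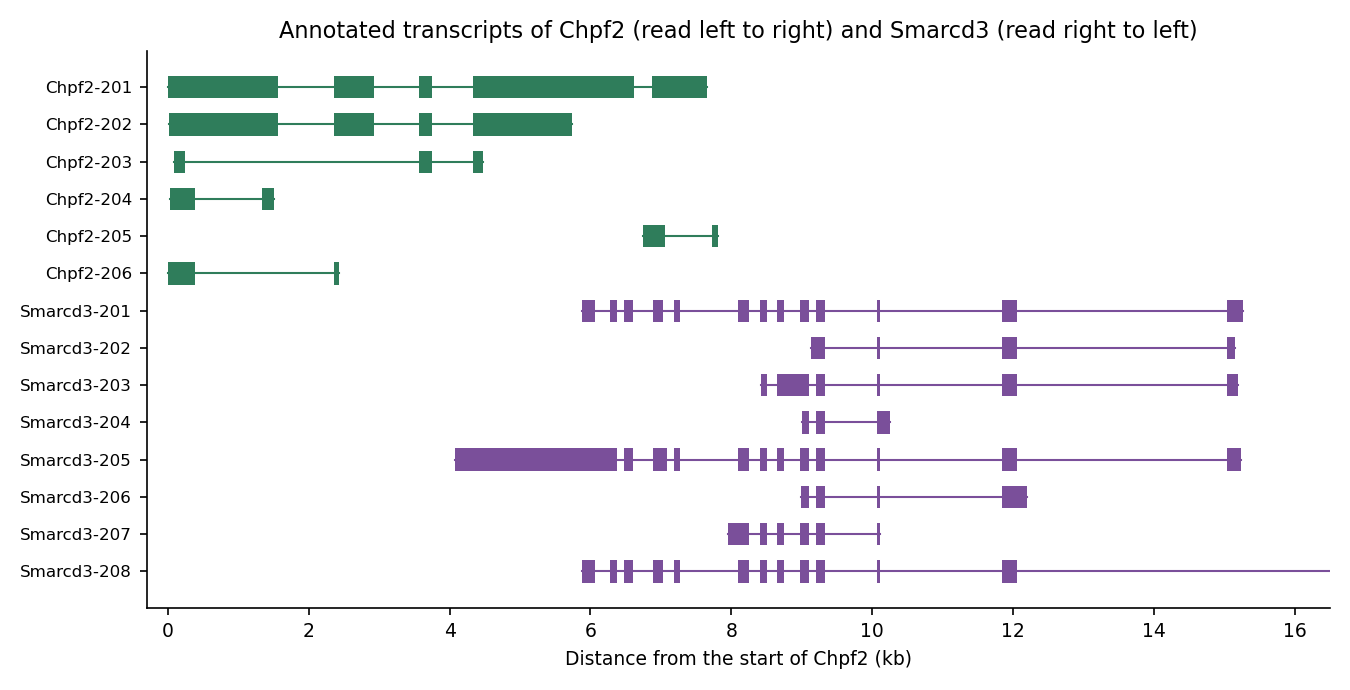
Annotated GENCODE M21 transcripts of Chpf2 (green) and Smarcd3 (purple), plotted by distance in kb from the start of Chpf2, with boxes for exons and lines for introns. The left ends of Smarcd3 transcripts are their 3′ ends, and those of the 2 coding transcripts lie inside the longest Chpf2 exon, while 1 coding transcript of Smarcd3 runs on past the right edge and 1 short transcript there is not drawn.

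The reads in the Smarcd3 row were fewer in Dox mice. The row held 595, 426, 722, 668 and 415 normalised counts in Dox 1 to 5, against 826, 891, 928 and 1135 in Pbs 1 to 4. Every Dox library lay below every Pbs library, a pattern that 1.38% of the 2604 tested genes showed, but since this contrast chose Smarcd3 nothing is read from that. The means were 565 ± 140 in Dox libraries (SD, n = 5) and 945 ± 134 in Pbs libraries (SD, n = 4). The fitted log2 fold change was -0.77 with a standard error of 0.22. The spread within a group exceeded what the counting of reads gives. The coefficient of variation was 24.7% among Dox and 14.1% among Pbs libraries, whereas counting alone would give 2.67% to 6.74% per library. The lowest Dox values were those of Dox 5 and Dox 2, the libraries with 16.8% and 35.3% of reads in the CT010467.1 row, and the highest Pbs value was that of Pbs 4, with its granulocyte markers. With Dox 2 and Pbs 4 both left out the fold change was -0.58 on the log2 scale, and the part of these 2 libraries in it was not otherwise tested. The summed fibroblast markers were also lower in Dox libraries (2351 to 3101) than in Pbs 1 to 3 (3169 to 3465), while Pbs 4, highest for Smarcd3, was lowest for them at 1535, and their part in the Smarcd3 values was not tested. A large part of that sum was Col1a1, and of the 7 fibroblast markers tested singly 4 had a higher and 3 a lower fitted mean in Dox libraries (median log2 fold change 0.14, 0 called by limma). In bulk libraries, fewer cells of a type and less RNA per cell cannot be told apart.

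Chpf2 showed no such separation. Chpf2, which lengthens chondroitin chains by adding glucuronic acid, held 353, 124, 348, 496 and 466 normalised counts in Dox 1 to 5, against 405, 305, 584 and 288 in Pbs 1 to 4. The groups overlapped, with 1 low Dox library (Dox 2, from 64 reads). The means were 357 ± 146 in Dox libraries (SD, n = 5) and 395 ± 136 in Pbs libraries (SD, n = 4). The log2 fold change of Chpf2 was -0.23 ± 0.36 (SE), with a limma adjusted p of 0.948 and a 95% interval of -0.999 to 0.54 on the log2 scale. The interval holds changes in both directions, and a missed threshold does not show that the groups were alike. The sign turned on 1 library, since without Dox 2 the log2 fold change of Chpf2 was 0.11.

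**Figure D2:**
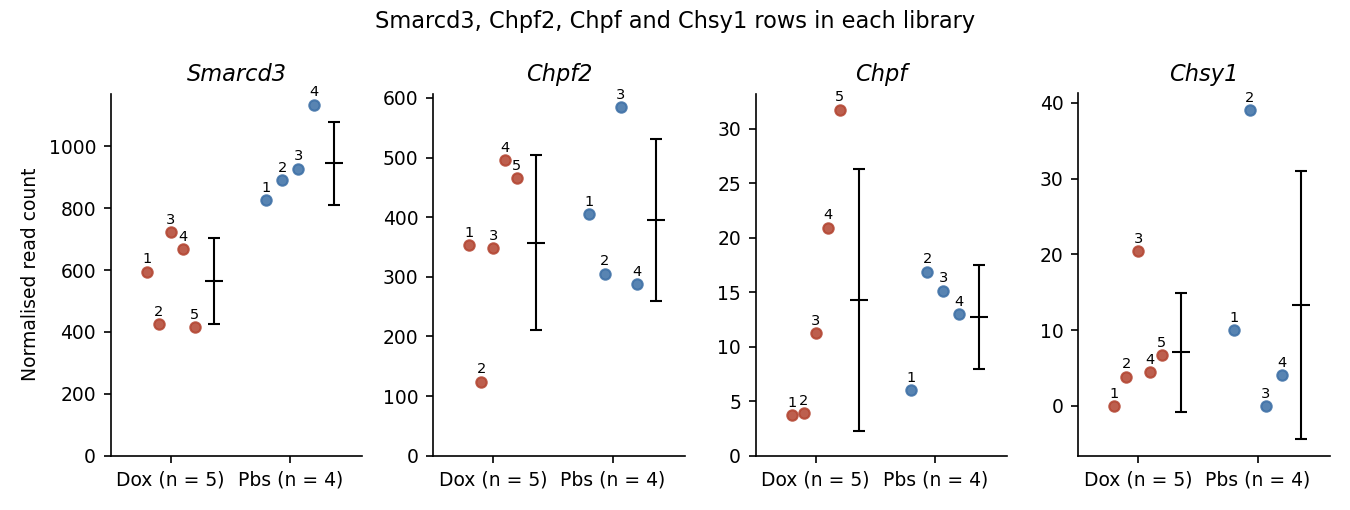
Normalised read counts of the Smarcd3, Chpf2, Chpf and Chsy1 rows in 5 Dox libraries (red) and 4 Pbs libraries (blue), each point labelled with its replicate number, with the mean and SD as a bar beside each group. Only the Smarcd3 panel shows groups that do not overlap, and each panel has its own scale.

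As reads in a row, Smarcd3 stood above Chpf2 in 8 of 9 libraries, Dox 5 being the exception. The ratio of the Smarcd3 row to the Chpf2 row was 1.69, 3.44, 2.07, 1.35 and 0.891 in Dox 1 to 5, against 2.04, 2.92, 1.59 and 3.95 in Pbs 1 to 4. These ratios overlapped between the groups, with means of 1.89 ± 0.97 in Dox libraries (SD, n = 5) and 2.62 ± 1.04 in Pbs libraries (SD, n = 4). The sum of both rows, which is the same whichever of them a counted read is given to, was 947, 550, 1070, 1164 and 881 in Dox 1 to 5, against 1231, 1196, 1512 and 1423 in Pbs 1 to 4. The sums did not overlap between the groups and averaged 922 ± 235 in Dox libraries (SD, n = 5) and 1340 ± 152 in Pbs libraries (SD, n = 4). Because the sum and the ratio contain the Smarcd3 values, both are descriptions. Over the 9 libraries the log2 values of the rows had a Pearson r of 0.31, and of 0.28 after the group means were taken away, points that share the same size factor in each library.

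**Figure D3:**
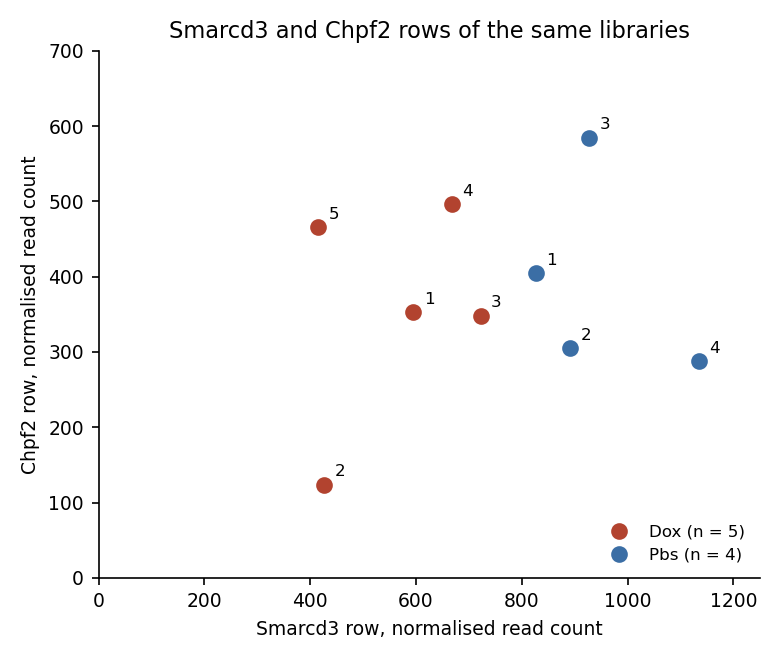
Normalised read counts of the Chpf2 row (vertical axis) against the Smarcd3 row (horizontal axis) of the same library, for 5 Dox libraries (red) and 4 Pbs libraries (blue), labelled by replicate number. The Dox points lie to the left of the Pbs points, at 415 to 722 against 826 to 1135 on the Smarcd3 axis, and the groups overlap on the Chpf2 axis.

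Which gene the reads of each row came from depends on how strand was treated when reads were counted. That setting is not given in the sources used here, and the deposited tables hold 1 value per gene and no read positions. If the rows are read by their names, the 3272 Dox and 3807 Pbs reads of the Smarcd3 row are Smarcd3 tags, and the fold change of -0.77 is that of a BAF subunit. If reads were given to the gene on the other strand, the same reads are Chpf2 tags, the fold change of -0.77 is that of a chondroitin enzyme, and the Chpf2 row, at -0.23, holds Smarcd3 tags. A count without strand would leave out tags that fall in exons of both genes. Which reading holds for this pair was not tested. A strand setting would apply to every row of a library. If reads were given to the other strand, all other rows, the marker rows among them, would also hold tags of the strand opposite to their gene. Values that bear on the readings are as follows.

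Among 1706 pairs of annotated genes on opposite strands, in which a 3′ end of one lies in the other and the summed mean is 10 or more, the lower row held a median of 1.94% of the pair's normalised counts. In the pair of Chpf2 and Smarcd3 it held 33.8%. A share this even or more was found in 168 pairs, or 9.85% (Wilson 95% interval 8.52% to 11.4%, for counting of pairs only). Most such pairs thus had nearly all of their reads in 1 row, whereas Chpf2 and Smarcd3 both held many. However, only 777 of the 1706 pairs have a protein-coding gene on both sides. In this subset, chosen after the data were seen, the median was 6.06% and 15.7% were as even as this pair. With the 3′ end inside an exon (978 pairs), the median was 4.77% and the share 13.8%. A set of pairs with a gene of known high expression was chosen after their values were seen. In 12 pairs that contain a cytosolic ribosomal protein gene, genes that every cell uses heavily, the row opposite to it was higher in 7. The rows of these 11 ribosomal protein genes summed to 359 normalised counts, and their opposite rows to 12551. For example, Rpl23a, a protein of the large subunit, stood at 2.27 and the opposite Tlcd1, a membrane protein gene, at 7958. Rpl32 stood at 32.1 and the opposite Cand2, a regulator of ubiquitin ligases, at 2579. Rpl28 was among the pairs of the other direction, at 43.5 with the opposite Ube2s at 12.5. The others were Rps28 (15.9, opposite Kank3 at 9.35) and Rpl35a (10.4, opposite Gm17106 at 0). Rps2, at 23.3, was counted in pairs with both Snora78 (0.366) and Snhg9 (0.103). How this relates to the rows of Smarcd3 and Chpf2 was not tested.

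**Figure D4:**
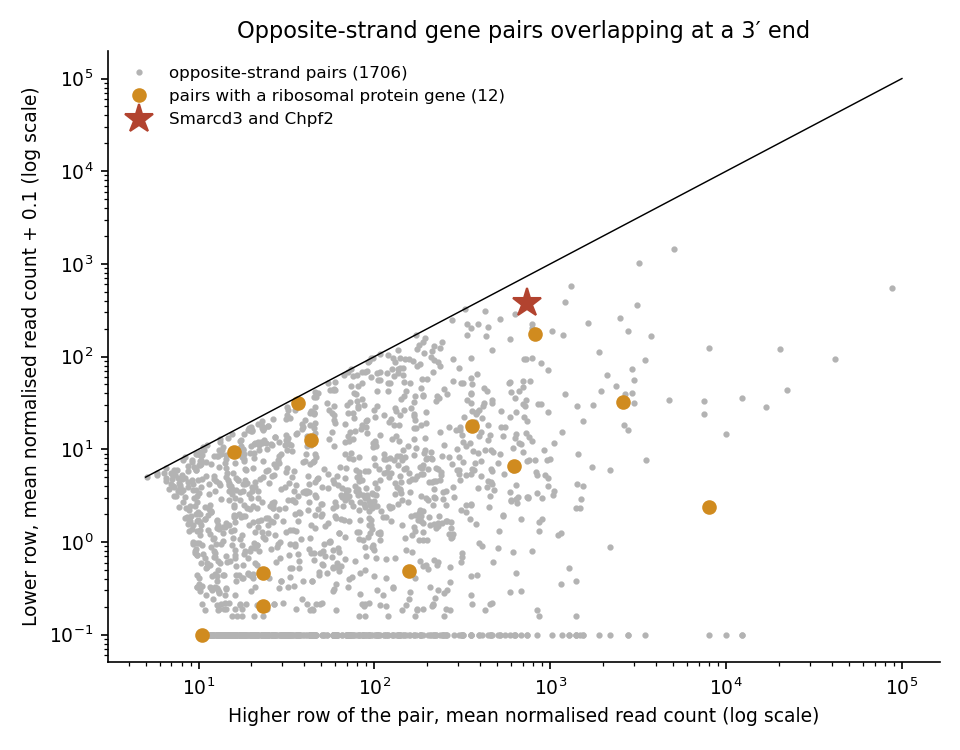
Opposite-strand gene pairs overlapping at a 3′ end, each plotted as the mean normalised read count over 9 libraries of its higher row (horizontal log axis) and of its lower row plus 0.1 (vertical log axis), with equality as a line. The star (Smarcd3 at 734, Chpf2 at 374) lies near the line, and several of the 12 pairs with a ribosomal protein gene (orange) lie far below it.

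The genes around the pair had few reads. Mir671, a microRNA gene inside the overlap on the strand of Chpf2, was at 0 in all 9 libraries. The nearest gene with a mean of 1 or more on the Chpf2 side was Agap3, a GTPase-activating protein gene 84.7 kb before Chpf2, at 0 to 2.04 in Dox libraries and 0 to 3.17 in Pbs libraries. On the other side it was Nub1, 61.1 kb beyond Smarcd3, whose product lowers the level of the ubiquitin-like NEDD8, at 0 to 3.87 in Dox libraries and 0 to 3.24 in Pbs libraries. No other annotated gene overlaps Smarcd3 or Chpf2.

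The rows of the other chondroitin enzymes were low. Of 4124 reads in the rows of the 6 enzymes over all libraries, 93.8% were in the Chpf2 row, the single row of the 6 that overlaps a highly counted gene. Chpf (chr1:75474569-75479307, minus strand), the cofactor that lets chondroitin synthases polymerise, was the only other enzyme to pass the filter of 10 or more in at least 4 libraries. It held 3.71, 3.87, 11.2, 20.9 and 31.8 normalised counts in Dox 1 to 5, against 5.99, 16.9, 15.1 and 13.0 in Pbs 1 to 4. The Dox values spread on both sides of the Pbs values, from 2 reads in Dox 2 to 62 in Dox 5. The log2 fold change of Chpf was -0.17 ± 0.72 (SE), with a limma adjusted p of 0.985 and a 95% interval of -1.71 to 1.37 on the log2 scale. Its sign was positive under other settings, among them edgeR (0.18), DESeq2 (0.21) and limma-voom (0.30), so that no direction is given for Chpf.

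Chsy1 (chr7:66109515-66173798, plus strand), which adds both sugars of the chain, held 0, 3.87, 20.4, 4.48 and 6.66 normalised counts in Dox 1 to 5, against 9.99, 39.1, 0 and 4.05 in Pbs 1 to 4. Both groups had a library at 0 and 1 far higher one, and Chsy1 did not pass the filter. Its means were 7.09 ± 7.83 in Dox libraries (SD, n = 5) and 13.3 ± 17.7 in Pbs libraries (SD, n = 4). Gm26827, an antisense gene on the other strand of Chsy1, held at most 1.26.

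The rows of the remaining enzymes were at the limit of detection. Given the doubt about strand, a low row here need not mean a low transcript. Csgalnact2 (chr6:118107452-118139140, minus strand), which starts chains, gave 1 read in Dox libraries and 2 in Pbs libraries. Chsy3 (chr18:59175401-59535999, plus strand), a synthase like Chsy1, gave 1 read, in Dox 3. Csgalnact1 (chr8:68356781-68735146, minus strand), the other starter of chains, gave 0 of 6303233 reads, which allows up to 3 reads in that total for counting error only. No difference between the groups was detectable at this depth for these 3 genes. In all, 3 of the 7 genes were tested and 4 were under the filter.

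None of the genes tested in Dox against Pbs passed an adjusted p of 0.05 (0 of 2604, or 0%, by limma, with 162 at an unadjusted p under 0.05). edgeR called 0 of 2657 (148 unadjusted), limma-voom 0 of 2657 (160) and DESeq2 0 of 17428 (463). The median log2 fold change of all tested genes was -0.0092. In the opposite direction to Smarcd3, 1.27% of tested genes had every Dox library above every Pbs library.

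The glycan lists cover the linker, chain modification, precursors, heparan sulfate, hyaluronan, breakdown and core proteins. They held 103 genes with a row in the tables, the 6 enzymes above among them, and 18 passed the filter when Chpf2 and Chpf are not counted. Of these 18, 8 had a higher and 10 a lower fitted mean in Dox libraries, with a median log2 fold change of -0.063 beside -0.0092 over all tested genes, and limma called 0 (2 at an unadjusted p under 0.05, Sgsh and Sulf2). This split turned on single libraries. Without Pbs 4, 4 of 16 had a higher mean, without Dox 2, 5 of 16, and without both libraries 1 of 15, the median log2 fold change then being -0.36 beside 0.0082 over all genes tested, with 0 called.

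Of the 7 enzymes that build the linker, 0 passed the filter and 5 had a mean of 1 or more. Xylt1, which puts the first xylose on the core protein, held 0 to 2.99 in Dox libraries and 1.06 to 4.86 in Pbs libraries. Of 17 genes for sugar and sulfate precursors, 2 were tested. Pgm3, an enzyme of the route to UDP-N-acetylglucosamine, held 83.5, 36.8, 73.5, 37.3 and 26.6 in Dox 1 to 5, against 71.9, 120, 66.9 and 82.6 in Pbs 1 to 4. Its groups overlapped through Dox 1 and Dox 3, and its log2 fold change was -0.81 ± 0.39 (SE, limma adjusted p = 0.761). Uap1, which makes UDP-N-acetylglucosamine, averaged 17.8 ± 12.2 in Dox libraries (SD, n = 5) and 10.6 ± 8.93 in Pbs libraries (SD, n = 4).

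Among 10 enzymes that modify chondroitin and dermatan chains, only Dse was tested, the epimerase that turns glucuronic into iduronic acid. Dse held 24.1, 61.9, 29.6, 36.6 and 34.8 in Dox 1 to 5, against 18.0, 31.7, 6.31 and 35.6 in Pbs 1 to 4. The groups overlapped, with the highest value in Dox 2 and the lowest in Pbs 3, and the log2 fold change was 0.86 ± 0.51 (SE, limma adjusted p = 0.802). The sulfotransferases Chst11 and Chst12, which place sulfate on N-acetylgalactosamine, had means of 1.13 and 1.35 over the 9 libraries.

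Of 22 heparan sulfate enzymes, which act on the sister chain made from the same linker, 7 had a mean of 1 or more and 1 was tested. This was Sulf2, an extracellular enzyme that removes 6-O-sulfate, at 74.2, 130, 75.6, 42.6 and 62.0 in Dox 1 to 5, against 106, 131, 122 and 129 in Pbs 1 to 4. Dox 2 lay among the Pbs libraries and the other 4 Dox libraries lay below them. The log2 fold change of Sulf2 was -0.75 ± 0.33 (SE, limma adjusted p = 0.761). Sulf2 also overlaps an opposite-strand gene at a 3′ end, the nuclear receptor coactivator Ncoa3, whose row averaged 112 ± 36.5 in Dox libraries (SD, n = 5) and 80.1 ± 33.0 in Pbs libraries (SD, n = 4). The doubt about strand given for Smarcd3 and Chpf2 applies to all rows of these lists, with or without an annotated partner. A partner row with a mean of 10 or more was present for Sulf2 and for Pgm3 (opposite Dop1a, mean 103 over the 9 libraries). The same holds for Sgsh (opposite Card14, 13.3) and Prg4 (opposite Tpr, 64.7). The 3 hyaluronan synthases Has1, Has2 and Has3 all passed the filter, each with a lower fitted mean in Dox libraries and none called. Of all 2604 tested genes, 1317 had a lower fitted mean. Has1 held 13.0, 0, 27.6, 1.49 and 11.3 in Dox 1 to 5, against 18.0, 19.0, 12.6 and 5.67 in Pbs 1 to 4, so its highest value was in a Dox library. Has2 averaged 30.5 ± 18.9 in Dox libraries (SD, n = 5) and 32.6 ± 8.43 in Pbs libraries (SD, n = 4).

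Among 18 genes for the breakdown of these chains, 3 were tested. Sgsh, a lysosomal sulfatase of heparan sulfate, held 13.9, 25.2, 8.17, 41.8 and 5.12 in Dox 1 to 5, against 0, 0, 1.26 and 12.2 in Pbs 1 to 4. Pbs 4 alone among Pbs libraries reached the Dox range, and the log2 fold change was 2.74 ± 1.02 (SE, limma adjusted p = 0.744). Idua, which removes iduronic acid, averaged 39.0 ± 19.8 in Dox libraries (SD, n = 5) and 38.4 ± 17.7 in Pbs libraries (SD, n = 4). The log2 fold change of Idua was 0.013 ± 0.46 (SE, limma adjusted p = 0.995).

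Of 20 core proteins that can carry chondroitin or dermatan sulfate, 8 were tested, and the fitted mean was higher in Dox libraries for 4 and lower for 4. Prg4, the lubricating proteoglycan lubricin, averaged 331 ± 156 in Dox libraries (SD, n = 5) and 443 ± 166 in Pbs libraries (SD, n = 4). Dcn, the collagen-binding proteoglycan decorin, held 87.2, 135, 110, 59.0 and 39.4 in Dox 1 to 5, against 89.9, 102, 90.9 and 9.72 in Pbs 1 to 4. Pbs 4 was the low library of that group, as it was for the fibroblast markers. Col14a1, a collagen of fibril surfaces, averaged 12.3 ± 6.12 in Dox libraries (SD, n = 5) and 17.0 ± 5.94 in Pbs libraries (SD, n = 4). Cd74, the invariant chain of antigen presentation, which has a chondroitin sulfate form, ran from 0 to 17.4 in Dox libraries and reached 110 in Pbs 4, against 4.00 to 6.31 in Pbs 1 to 3.

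**Figure D5:**
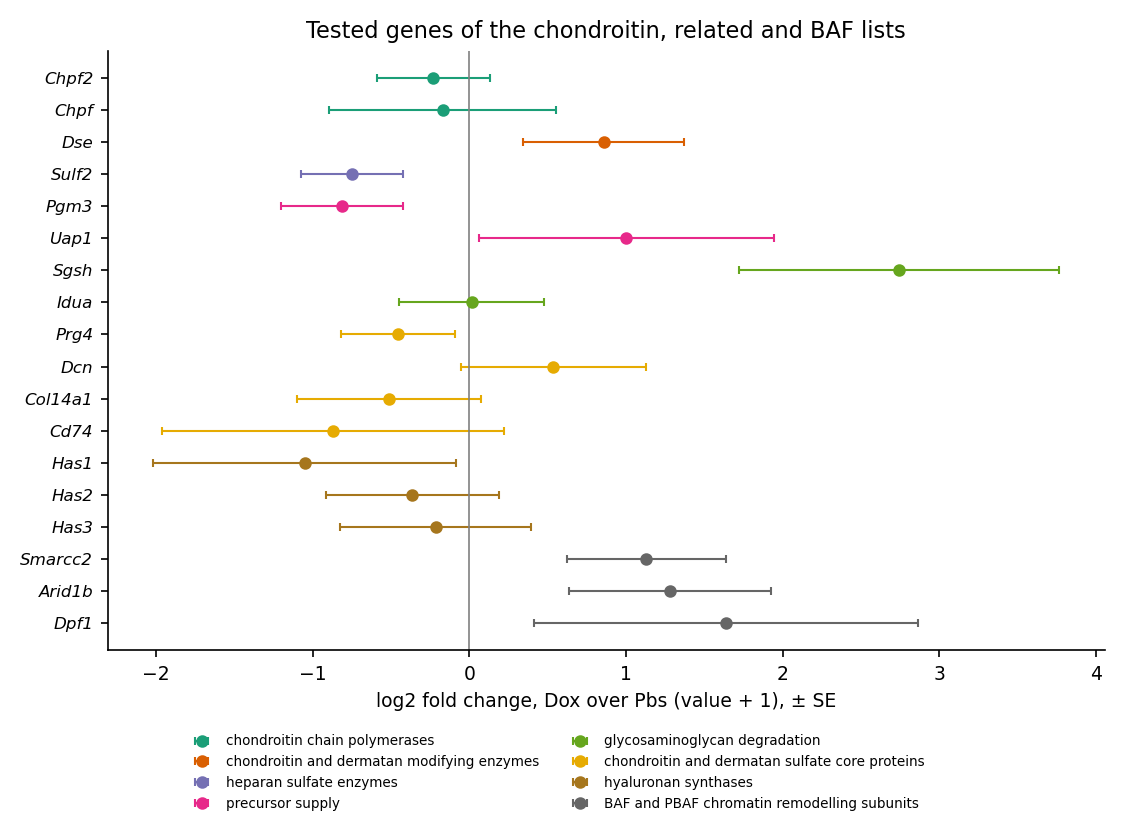
Fitted log2 fold changes of Dox over Pbs on the log2(value + 1) scale, with standard errors as bars, for Chpf2, Chpf and up to 4 genes of lowest p in each list, coloured by list (Smarcd3 is left out because its contrast chose it, and 1 other gene is not shown). Points lie on both sides of 0, from -1.05 (Has1) to 2.74 (Sgsh), and none passed the adjusted p threshold.

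Of 28 subunits of the BAF and PBAF complexes, 5 were tested, Smarcd3 among them, and 23 had a mean of 1 or more. The fitted mean was higher in Dox libraries for 3 of the 5 and lower for 2, Smarcd3 included. Smarcd1 and Smarcd2, the paralogs that can take the place of Smarcd3 in the complex, had means of 1.55 and 5.79 over the 9 libraries. Smarcc2, a scaffold subunit, held 23.2, 71.6, 28.6, 35.9 and 109 in Dox 1 to 5, against 13.0, 13.7, 27.8 and 32.4 in Pbs 1 to 4. The Dox and Pbs ranges overlapped, with Dox 5 and Dox 2 highest, and the log2 fold change was 1.13 ± 0.51 (SE, limma adjusted p = 0.761). Arid1b, a DNA-binding subunit, averaged 26.8 ± 17.8 in Dox libraries (SD, n = 5) and 10.8 ± 5.91 in Pbs libraries (SD, n = 4). Dpf1, a histone-reading subunit known from neurons, averaged 31.0 ± 32.2 in Dox libraries (SD, n = 5) and 10.5 ± 13.7 in Pbs libraries (SD, n = 4). None was called. Of 9 marker genes of neurons and muscle, listed as other tissues of Smarcd3, 4 were at 0 in every library (Tubb3, Syt1, Elavl4 and Myh6). The list summed to at most 5.64 in any Dox library and 7.39 in any Pbs library.

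The rows most like Smarcd3 over the 9 libraries, by Pearson r of log2(value + 1), were CAAA01118383.1 (0.97), Gm10432 (0.96), Gm20721 (0.95), Gnb2 (0.91) and Grtp1 (0.91). Gnb2 encodes a G protein beta subunit. Gm20721 averaged 19556 ± 2391 in Dox libraries (SD, n = 5) and 25704 ± 2260 in Pbs libraries (SD, n = 4). Grtp1 averaged 6733 ± 450 in Dox libraries (SD, n = 5) and 8412 ± 534 in Pbs libraries (SD, n = 4). Like Smarcd3, 3 of these 5 are the higher row of an opposite-strand pair, Gm20721 over Gnas, Grtp1 over Lamp1 and Gm10432 over Ttc7b, and so are 47.5% of all tested genes. Their opposite rows were low, with Gnas at 51.2 ± 29.5 in Dox libraries (SD, n = 5) and 34.2 ± 5.74 in Pbs libraries (SD, n = 4). After group means were taken away the leading rows were CAAA01118383.1 (0.96), AA474408 (0.92), Slc2a4rg-ps (0.91), Gm15884 (0.91) and Prkag1 (0.89), of which 1 of 5, Gm15884 over Phb2, is the higher row of such a pair. The points share size factors and the group difference that chose Smarcd3, and no function is read from the likeness.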

How the data were processed

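The authors deposited 1 table per library with a normalised signal per gene (55421 lines, 55302 symbols; 119 repeated lines were summed). In each, 100% of values were whole multiples of 1 step (tolerance 1e-06), so the deposited signal is a read count over a DESeq2-type size factor. Alignment by the authors used STAR on mm10, and counting used HTSeq with, per Methods, a RefSeq annotation file (tool versions, strand setting, collapsing of molecular tags: not given in the sources used here), so errors from counting cover reads only. Of the 17428 symbols above 0, 98.3% were in GENCODE M21, used here for loci. The symbols include Ensembl-style clone names such as CT010467.1 and CAAA01118383.1, so the gene models used in counting may differ from those named in Methods.

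A limma-trend model (limma 3.58.1 under R 4.3.3) was fitted to log2(value + 1) of all 9 libraries, for genes at 10 or more in at least 4, with Benjamini-Hochberg adjustment at 0.05. Fold changes on this scale understate those of low genes. Alternatives on recovered reads were edgeR 4.0.16, limma-voom and DESeq2 1.42.0, beside other pseudocounts, filters, scalings, library weights, omitted libraries and a replicate block. No 2 libraries were copies, since chi-square per degree of freedom was 11.4 to 41.4 between Dox and 8.51 to 26.6 between Pbs libraries. The p-values measure the spread between these samples. Tables were handled with Python 3.11.15 and pandas 2.3.3.

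The members, gene lists and pair rules were chosen with earlier results of these data known. Genes were named by a rule: the members, up to 4 tested genes of lowest p per list, overlapping and nearest genes, and the 5 rows most like Smarcd3 by each measure. Smarcd1, Smarcd2, Xylt1, Chst11, Chst12 and the ribosomal protein pairs fall outside it and were picked after values were seen. Of the genes the rule names, 1 is not reported here. No protein sequences were used here.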

Additional observations from a re-analysis of the deposited data

Results flagged for a closer look

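In 5 cases a single library lay far from the others of its group, and 48 groups of libraries were examined. The gap used is one that chance alone gives in about 1 of 20 groups where values vary continuously, which rows of few reads do not. Pbs 4 was the odd library in 3 of them. Dcn was at 9.72 normalised counts there, against 89.9 to 102 in the other Pbs libraries. Cd74 was at 110 there, against 4.00 to 6.31. Sgsh was at 12.2 there (15 reads), against 0 to 1.26. Chsy3 and Csgalnact2 were each at 1.02 in Dox 3, from 1 read, against 0 in the other Dox libraries. A single read among libraries at 0 always gives such a gap, so the rate of 1 in 20 does not hold for these rows. It need not hold for Sgsh either, with the other Pbs libraries at or near 0.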

How the results depend on the processing

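Smarcd3 stayed lower in Dox libraries in all 22 alternatives, between -0.865 and -0.58 on the log2 scale. It moved by less than the within-group SD in each. Single-library omissions gave -0.865 to -0.67 and the omission of both Pbs 4 and Dox 2 gave -0.58. Since these same libraries chose Smarcd3, this is a description and no independent support for its fall. Chpf2 was not called in any setting (adjusted p 0.816 to 0.997) and gave -0.39 to 0.11 when single libraries were left out. Chpf was not called either (0.933 to 0.999). It gave 0.18 with edgeR, 0.30 with limma-voom, 0.21 with DESeq2, 0.17 without Pbs 4 and Dox 2, and -0.55 to 0.15 when single libraries were left out; a filter of 20 removed it. Without a filter limma called 3 of 17428 genes; all other settings called 0, and no glycan list gene outside the members was called in any. Of the glycan list genes, 35 of 79 had a higher mean without a filter, 39 of 79 with DESeq2 and 1 of 15 without Pbs 4 and Dox 2, and 4 to 10 when single libraries were left out. The share of pairs as even as Smarcd3 and Chpf2 was 13.8% for 3′ ends inside exons and 15.7% for protein-coding pairs. The latter alternative was chosen after seeing the data, as was the small set of ribosomal protein pairs. In that set the opposite row was higher in 7 of 12 pairs in the main setting (58.3%, Wilson 95% interval 32.0% to 80.7%). The exon rule gave 6 of 7 (85.7%, 48.7% to 97.4%). A summed mean of 50 or more gave 7 of 8 (87.5%, 52.9% to 97.8%). Protein-coding pairs gave 5 of 7 (71.4%, 35.9% to 91.8%). These intervals overlap and are for counting of pairs only. The cause of these shifts was not tested, beyond fewer pairs or more genes entering.

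After group means were taken away, libraries of the same replicate number had low correlations (0.0207 to 0.0665 over 4 pairs). However, 3 of 4 Pbs libraries were closest to their own number. Whether the replicate number pairs the samples cannot be decided from 4 pairs. A replicate block without Dox 5 gave -0.67 for Smarcd3, -0.36 for Chpf2 and -0.55 for Chpf, with 0 genes called. The rows of Chsy3, Csgalnact1 and Csgalnact2 had 0 to 3 reads in all, too few to compare the groups. Whether depth or the strand of counting set these values was not tested. Chsy1, with 93 reads, gave -0.36 ± 0.84 (SE, limma adjusted p = 0.896) without a filter and -0.90 ± 1.20 (adjusted p = 0.986) with DESeq2.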
